A study of Mus musculus with 20 samples.

Results

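Claudins and other tight junction proteins were followed in mouse mammary tumour cells through 10 genes chosen by name: the claudins Cldn1, Cldn3, Cldn4, Cldn6, Cldn7, Cldn9 and Cldn12, the membrane protein occludin (Ocln) and the scaffold proteins Tjp1 (ZO-1) and Tjp3 (ZO-3). They are 10 of 19311 genes in one set of libraries and of 24454 in the other. The cells were Py2T, a line from a mammary tumour of the MMTV-PyMT mouse, in which the mouse mammary tumour virus promoter drives the polyoma middle T oncogene. RNA sequencing covered 10 groups of 2 replicates, 20 libraries in all, with RNA isolated in 2 independent experiments per the labels. Py2T LT were Py2T cells given 2 ng/ml TGFb1 for more than 10 days. M1, M2 and M3 were stable mesenchymal cells, each 1 clone, and the labels do not say whether they were kept in TGFb1. The other 6 groups were all clone M3, carrying shControl, shTet2 or shMbd3, either left without drug or given 2 µM CI994, which blocks class I histone deacetylases, for 72 hours. No group of Py2T cells without TGFb1 was analysed here. Tet2 is an enzyme that starts the removal of DNA methylation, and Mbd3 belongs to NuRD, a remodelling complex with histone deacetylase activity. The series title names both among regulators of epithelial-mesenchymal plasticity.

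Tight junctions seal the space between neighbouring epithelial cells. Claudins form the strands and set which ions pass, occludin sits in the same strands, and the ZO scaffolds bind the tails of claudins and occludin and tie them to actin. Mammary epithelium carries these junctions, and cells that go through an epithelial-mesenchymal transition commonly lose them, in part through repressors of the Snail and Zeb families that bind E-box sequences.

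Cldn3 and Cldn4 are single-exon genes 39279 bases apart on chromosome 5 (GRCm38, RefSeq), at chr5:134986214-134987476 and chr5:134945123-134946934. Cldn6 (chr17:23679348-23682446) and the single-exon Cldn9 (chr17:23682584-23684026) are 137 bases apart. Cldn7 lies at chr11:69964779-69967886, Cldn1 at chr16:26356645-26371839, Cldn12 at chr5:5505015-5514976, Ocln at chr13:100496504-100552718, Tjp1 at chr7:65296165-65527850 and Tjp3 at chr10:81273188-81291581. The end of Cldn3 overlaps the long noncoding RNA Wbscr25, and Tjp3 overlaps Apba3, so reads there could be split between genes. No transcript of a member shared 50 or more identical bases with a transcript of another gene, the longest shared stretch being 36 bases.

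The 250 bases before the start are shown for the 4 members that were higher with both knockdowns, since these genes moved together in the results that follow. They come from RefSeq (GRCm38.p6), where 9 of the 10 members had an entry, and were searched on both strands for the E-box motif CACCTG and for AACCNGTT, the sequence bound by grainyhead-like factors. Capitals mark an E-box. Cldn3 is chr5:134985964-134986213 on the plus strand, Cldn4 is chr5:134946935-134947184 on the minus strand, Cldn7 is chr11:69964529-69964778 on the plus strand and Ocln is chr13:100552719-100552968 on the minus strand, each written in the direction of its gene.
Cldn3: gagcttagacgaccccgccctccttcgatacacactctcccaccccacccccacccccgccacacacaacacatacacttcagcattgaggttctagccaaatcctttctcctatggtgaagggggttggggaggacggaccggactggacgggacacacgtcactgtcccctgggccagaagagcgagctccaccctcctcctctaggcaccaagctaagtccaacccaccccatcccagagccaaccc
Cldn4: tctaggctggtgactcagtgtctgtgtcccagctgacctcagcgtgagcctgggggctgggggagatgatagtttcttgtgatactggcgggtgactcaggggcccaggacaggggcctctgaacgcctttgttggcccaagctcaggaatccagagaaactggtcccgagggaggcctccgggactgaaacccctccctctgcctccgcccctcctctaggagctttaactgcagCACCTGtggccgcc
Cldn7: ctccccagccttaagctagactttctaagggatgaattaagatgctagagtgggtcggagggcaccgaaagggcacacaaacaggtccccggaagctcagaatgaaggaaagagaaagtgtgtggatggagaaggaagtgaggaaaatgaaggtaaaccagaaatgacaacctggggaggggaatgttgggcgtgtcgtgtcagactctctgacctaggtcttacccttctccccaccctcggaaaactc
Ocln: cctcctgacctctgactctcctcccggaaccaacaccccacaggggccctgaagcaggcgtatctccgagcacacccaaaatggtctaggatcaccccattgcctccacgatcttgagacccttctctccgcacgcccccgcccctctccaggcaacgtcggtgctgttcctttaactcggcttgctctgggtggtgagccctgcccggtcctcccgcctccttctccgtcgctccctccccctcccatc
Among these 4 only the Cldn4 sequence held the E-box, 14 bases before the start. Second annotated starts of Cldn7 and Ocln each had 2 E-boxes in their 250 bases, 97 and 57 bases before the start in Cldn7 and 213 and 68 in Ocln. Cldn6 had 1, at 93 bases. Tjp3, nearly without reads in these libraries, had 1 before each listed start, at 17 and 108 bases. Of 32851 mouse promoters of this length, 17.2% held the E-box and 1.79% held AACCNGTT, which no member sequence had. CG dinucleotides numbered 9 in the Cldn3 sequence, 7 in Cldn4, 6 in Cldn7 and 14 in Ocln, against a median of 6 over all promoters. A match is a string of letters and was not tested for binding.

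The first 8 libraries, Py2T LT and the clones, held RPKM, reads scaled to transcript length and library size, whose depth is unknown. The 12 M3 shRNA libraries held CPM, reads scaled to library size only, from 16086082 to 24977595 reads, so that 3 reads equal 0.120 to 0.186 CPM. Levels are compared only within a set. One library stood apart: in that labelled shControl replicate 1, genes of high GC content were low. Its log2 difference from shControl replicate 2 ran from a median of 0.63 in the lowest decile of genes by GC to -1.14 in the highest, a change of -1.77, against -0.39 to 0.01 in the other CPM pairs. Mbd3 was at 5.40 CPM in that library and 66.5 in shControl replicate 2, while shMbd3 held 22.1 and 27.7 CPM and, with CI994, 16.6 and 21.9. The Mbd3 level of that library thus goes against its label. The reason, and the part of the GC trend in it, was not tested, and the library is called by its label in what follows. With limma, Mbd3 did not pass between shMbd3 and shControl (0.29 ± 0.81, adjusted p = 0.798), nor with CI994 (-1.67 ± 0.81, adjusted p = 0.198). Tet2 was at 15.1 and 13.8 CPM in shControl and 8.41 and 7.97 in shTet2, a fall of 0.76 ± 0.18 on the log2 scale (adjusted p = 0.0176). With CI994 Tet2 was at 8.13 and 11.4 CPM in shControl and 6.30 and 7.42 in shTet2, which did not pass (adjusted p = 0.127). Without that library Mbd3 was lower with shMbd3 by a log2 difference of -1.41 (adjusted p = 0.000212) and Tet2 lower with shTet2 by -0.64 (adjusted p = 0.0281). The member results that use shControl without CI994 are given with and without that library.

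Most members of high GC content were low in that library too. Cldn3, the member of highest GC content (62.7%), differed by -3.24 on the log2 scale between shControl replicates 1 and 2, Cldn4 by -1.52 and Cldn7 by -1.02. Cldn12 and Tjp1, of lower GC content (44.5% and 46.8%), differed by 0.58 and 0.42. Cldn1 and Ocln, the members of lowest GC content (39.0% and 42.0%), differed by 0.23 and 0.07, below the lower quartiles of their deciles (0.42 and 0.32). The widest gap in this pair was that of Cldn3 and the narrowest that of Ocln.

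**Figure D1:**
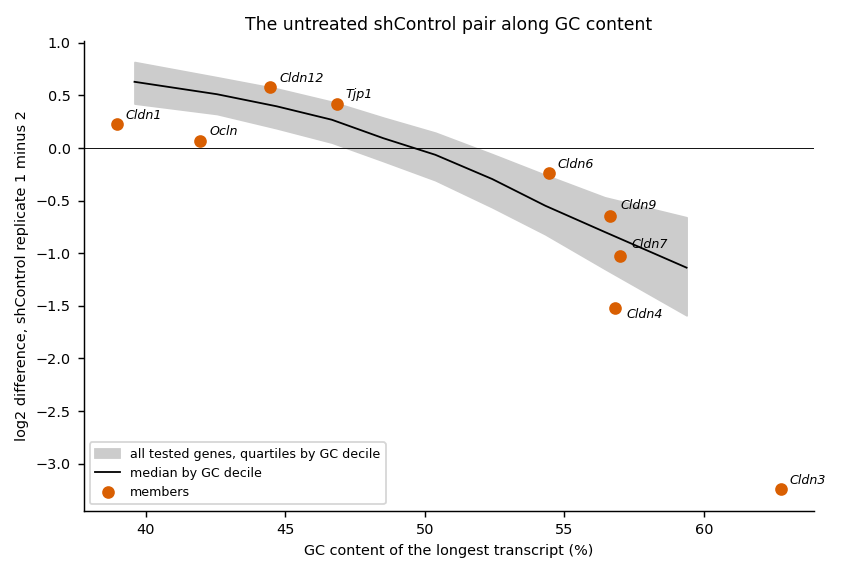
Log2 difference between the libraries labelled shControl replicate 1 and 2 without CI994 (y axis, CPM scale) against GC content of the longest transcript in percent (x axis). The line is the median of all tested genes in each GC decile and the band its quartiles; orange points are the 9 tested members, from 0.58 for Cldn12 to -3.24 for Cldn3.

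In the clones the claudin set was different from that of Py2T LT: Cldn6 and Cldn9 were high where Py2T LT had under 1 RPKM, and Cldn4 was low. Which claudins differ between TGFb1-treated Py2T cells and stable mesenchymal clones is the question of these comparisons, which share the same 2 Py2T LT libraries. Differences were tested with limma on log2 of the TMM-scaled value plus 0.5, and a gene is said to rise or fall where the p adjusted over all genes is under 0.05. Of the 8 members tested in RPKM, 4 rose and 3 fell in M1, where 30.4% and 30.5% of all 11717 genes did. In M2 the count was again 4 and 3, with backgrounds of 28.7% and 28.8%, and in M3 it was 4 and 4, with 30.3% and 29.1%. Cldn6 and Cldn9 passed the filter of 1 RPKM only through the clones. Cldn7, at 1.08 and 0.615 RPKM in Py2T LT, also needed a clone library to pass. Of the members that rose, only Cldn3 reached 1 RPKM in both Py2T LT libraries. With Cldn6, Cldn7 and Cldn9 among them, the median log2 difference of the members was 0.53, 0.30 and 0.11 in M1, M2 and M3, against -0.02, 0.00 and 0.01 over all genes. Since the filter favoured high clone values of these genes, the medians do not show which way the members tend.

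Cldn6, a claudin of embryonic epithelia that is low in most adult tissues, was at 0.386 and 0.223 RPKM in Py2T LT. It was at 178 and 173 RPKM in M1, 11.5 and 11.8 in M2, and 223 and 248 in M3. All 6 clone libraries lay far above both Py2T LT libraries, and M2 lay well below the other clones. The log2 difference from Py2T LT was 7.74 ± 0.12 (SE, adjusted p = 7.2e-09) in M1, 3.92 ± 0.12 (adjusted p = 4.13e-08) in M2 and 8.21 ± 0.12 (adjusted p = 5.37e-09) in M3.

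Cldn9, the neighbour of Cldn6 and a claudin needed in the inner ear, was at 0.726 and 0.658 RPKM in Py2T LT. It was at 77.0 and 67.4 RPKM in M1, 54.4 and 47.8 in M2, and 60.3 and 66.4 in M3. The clones were close to each other, unlike their Cldn6 levels. Log2 differences from Py2T LT were 5.89 ± 0.11, 5.43 ± 0.11 and 5.75 ± 0.11 in M1, M2 and M3, with adjusted p = 7.2e-09, 6.22e-09 and 5.37e-09.

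Cldn4, which with Cldn3 is a receptor of the Clostridium perfringens enterotoxin, went the other way. Py2T LT held 63.8 and 47.8 RPKM, M1 3.01 and 2.41, M2 2.11 and 1.74, and M3 8.13 and 8.94. It fell by 4.16 ± 0.16 on the log2 scale in M1, by 4.54 ± 0.16 in M2 and by 2.63 ± 0.16 in M3 (adjusted p = 1.92e-07, 1.08e-07 and 2.77e-06). M3 kept the most Cldn4 of the clones, with no overlap between its libraries and those of M1 or M2.

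Cldn3, next to Cldn4 on the chromosome, rose. Its level was 30.8 and 27.0 RPKM in Py2T LT, 70.6 and 61.2 in M1, 46.1 and 42.6 in M2, and 49.2 and 66.4 in M3, so every clone library was above both Py2T LT libraries. The log2 differences were 1.13 ± 0.15, 0.60 ± 0.15 and 0.98 ± 0.15 in M1, M2 and M3. The rise in M2 was no longer called without Py2T LT replicate 2, where it was 0.50, or without M2 replicate 1, where it was 0.55.

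Cldn7, a claudin that binds Epcam and lies along the sides of epithelial cells, was low in both states. Py2T LT held 1.08 and 0.615 RPKM, M1 4.98 and 3.10, M2 4.74 and 4.21, and M3 5.90 and 7.81. It rose by 1.71 ± 0.24, 1.90 ± 0.24 and 2.46 ± 0.24 on the log2 scale. With 1 Py2T LT library under 1 RPKM, it passed the filter only with the help of clone libraries. Cldn1, the claudin of the skin barrier, was at 3.73 and 3.09 RPKM in Py2T LT, 3.36 and 3.30 in M1, 3.51 and 3.36 in M2, and 1.90 and 1.56 in M3, and it fell in M3 alone of the 3 comparisons with Py2T LT, by 0.81 ± 0.14. Whether the clones differed in Cldn1 was tested directly, as given with the differences between clones.

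Cldn12, a claudin without the usual tail motif for ZO proteins, was at 46.2 and 46.2 RPKM in Py2T LT, 25.5 and 25.4 in M1, 30.7 and 30.2 in M2, and 28.6 and 24.7 in M3. It fell by 0.89 ± 0.10, 0.60 ± 0.10 and 0.78 ± 0.10 on the log2 scale. Tjp1 was at 56.7 and 55.2 RPKM in Py2T LT, 17.5 and 30.0 in M1, 32.9 and 35.3 in M2, and 31.9 and 33.3 in M3. It fell by 1.31 ± 0.22, 0.72 ± 0.22 and 0.77 ± 0.22 in M1, M2 and M3. The falls in M2 and M3 were not called without either Py2T LT library or without either library of the clone, although the differences stayed between -0.66 and -0.81. Both M1 libraries, and all others of the clones, were below both Py2T LT libraries for Cldn12 and for Tjp1.

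Ocln and Tjp3 were not tested in these libraries. Ocln was listed at 0 and 0.0175 RPKM in Py2T LT, 0 and 0.0421 in M1, 0.0784 and 0.114 in M2, and 0.103 and 0.0871 in M3. Tjp3 was listed at 0 RPKM in all 8 libraries. In the 12 M3 shRNA libraries Tjp3 had 2 reads in total, 1 in each shTet2 library with CI994, so it was at or under the level of 3 reads throughout.

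Summed over the 7 claudins, RPKM reached 147 and 126 in Py2T LT, 362 and 336 in M1, 153 and 142 in M2, and 377 and 424 in M3. Cldn4 led in Py2T LT, with 43.5% and 38.1% of the sum, followed by Cldn12 with 31.5% and 36.8%. In M1 and M3 Cldn6 led, with 49.1% and 51.5% of the sum in M1 and 59.1% and 58.5% in M3. In M2 Cldn9 led, with 35.6% and 33.7%, and Cldn3 followed with 30.1% and 30.1%. The order Cldn9 above Cldn3 in M2 held in both libraries, while in M3 replicate 2 both stood at 66.4 RPKM.

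**Figure D2:**
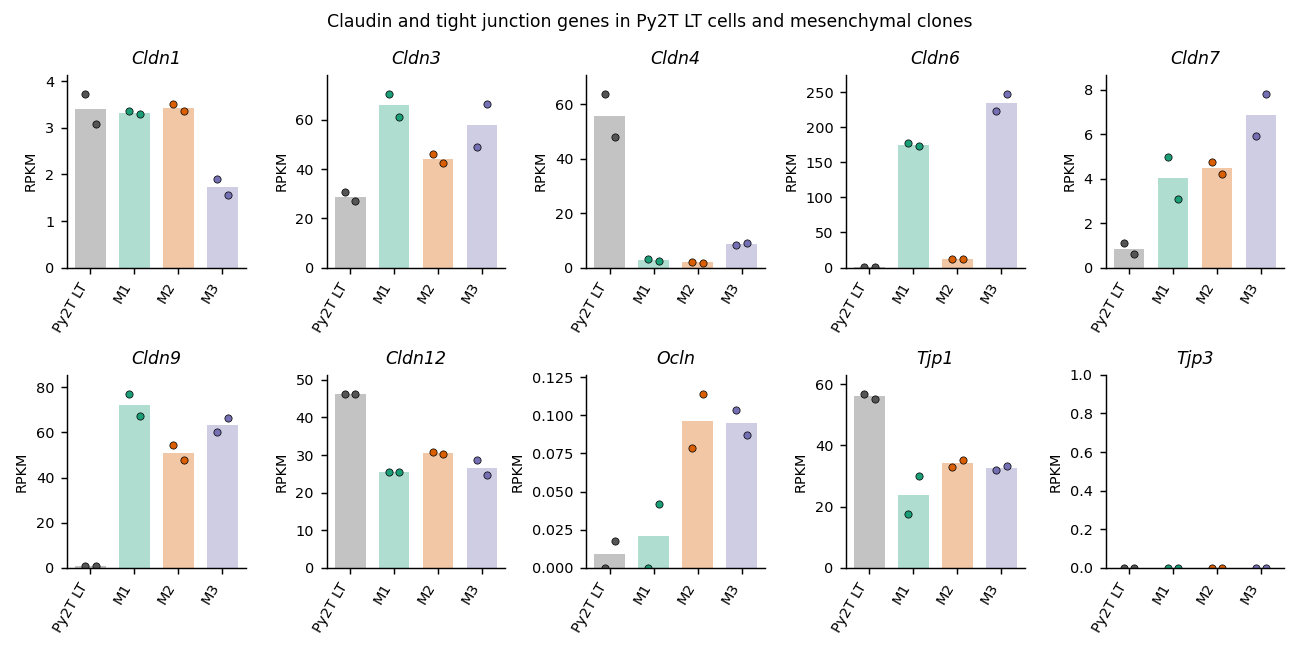
RPKM (y axis, linear from 0, its own range for each gene) of the 10 members in Py2T LT and the clones M1, M2 and M3 (x axis). Points are the 2 replicates and bars their mean; Cldn6 and Cldn9 are near 0 in Py2T LT, Cldn4, Cldn12 and Tjp1 are highest there, and Tjp3 is listed at 0 throughout.

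The clones also differed from each other. Between M1 and M2, 3 members were called higher in M1 and 0 lower, where 11.8% and 11.1% of all genes were. Cldn6 was higher in M1 by 3.82 ± 0.12 (adjusted p = 1.6e-06), Cldn3 by 0.53 ± 0.15 and Cldn9 by 0.46 ± 0.11 on the log2 scale. The Cldn3 difference dropped to 0.11 and the Cldn9 difference to 0.26 when each library's trend along GC content was removed, and neither was then called, nor was either without M1 replicate 1 or without either M2 library. Between M2 and M3, 1 member was higher in M2 and 2 lower, where 9.61% and 10.6% of all genes were: Cldn6 was -4.29 ± 0.12 in M2 relative to M3, Cldn4 -1.91 ± 0.16 and Cldn1 0.81 ± 0.14. Between M1 and M3, 1 was higher and 1 lower, with 1.72% and 3.20% of all genes: Cldn1 was higher in M1 by 0.74 ± 0.14 and Cldn4 lower, at -1.54 ± 0.16. Cldn6 did not pass between M1 and M3 (-0.47 ± 0.12, adjusted p = 0.0595), nor did Cldn7 (adjusted p = 0.119), Cldn12 (adjusted p = 0.521) or Tjp1 (adjusted p = 0.210). The Cldn1 difference between M1 and M3 was not called without any 1 of M1 replicate 1, both M2 libraries or both M3 libraries, and that between M2 and M3 not without M3 replicate 2.

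The genes around the Cldn6 and Cldn9 pair were also higher in the clones, by far less. Hcfc1r1 rose by 2.25, 1.77 and 2.04 in M1, M2 and M3 on the log2 scale, and Pkmyt1, 42309 bases beyond Cldn9, by 1.66, 0.90 and 1.31. Thoc6, Paqr4 and 9530082P21Rik rose in each clone too, and Tnfrsf12a, 1898 bases from Cldn6, rose by 0.47 and 0.51 in M1 and M2 and was at 0.31 in M3, short of the threshold. Around the Cldn3 and Cldn4 pair, Stx1a fell by 0.99, 1.25 and 1.28, Abhd11 fell by 0.43 and 0.58 in M2 and M3, and Mettl27, 2485 bases from Cldn4, rose by 0.61 and 0.50 in M1 and M3.

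Cells of the clones were checked against markers. Of 6 epithelial markers tested, 2 rose and 3 fell in M1, 4 and 0 in M2, and 2 and 1 in M3. Esrp1, counted as a fall in M1 (-1.38) and M3 (-0.70), was under 1 RPKM in both libraries of these clones, so the filter favoured its falls. Among all genes 30.4% rose and 30.5% fell in M1, 28.7% and 28.8% in M2, and 30.3% and 29.1% in M3. Cdh1 was at 2.32 and 1.56 RPKM in Py2T LT and between 1.05 and 6.01 in the clones, and the listed sum, mostly Krt8 and Krt18, was 1146 to 1180 RPKM in Py2T LT and 1303 to 1933 in the clones. Of 6 mesenchymal markers 3 rose and 3 fell in each clone: Cdh2 rose by 4.09, 4.55 and 4.21 in M1, M2 and M3, Prrx1 by 1.95, 2.09 and 2.10 and Twist1 by 1.96, 1.74 and 1.99, while Vim, Fn1 and Zeb1 fell. Their sum, mostly Vim and Fn1, was 2898 and 3005 RPKM in Py2T LT and 1034 to 1570 in the clones. Vim was at 1397 and 1379 RPKM in Py2T LT and 358 to 589 in the clones. Endothelial markers summed to at most 1.94 RPKM and haematopoietic markers to at most 2.99, nearly all Cd68. In bulk RNA, fewer cells that express a gene and less of its RNA per cell cannot be told apart, and the part of these markers in the claudin differences was not tested.

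Other tight junction genes, from lists chosen with earlier results of these data known, moved in both directions in the clones. Of 13 other junction membrane proteins 7 were tested, and 4 rose and 3 fell in M1, 3 and 3 in M2, and 4 and 3 in M3. Of these Jam3 and Igsf5 passed the filter only through Py2T LT and Marveld2 only through M3, so the directions of Jam3 and Igsf5 in the clones and of Marveld2 in M3 were fixed by the filter. Lsr, a protein of the corners where 3 cells meet, was at 1.52 and 1.13 RPKM in Py2T LT and 12.1 to 20.8 in the clones, a rise of 2.82, 2.89 and 3.46 in M1, M2 and M3. Cxadr, the coxsackievirus and adenovirus receptor, rose by 2.08, 2.23 and 2.29, while F11r (JAM-A) fell by 0.92, 0.95 and 0.59. Jam3 was at 3.93 and 3.35 RPKM in Py2T LT and listed at 0 in all 6 clone libraries. Of 26 plaque and scaffold proteins 25 were tested, and 6 rose and 8 fell in M1, 7 and 7 in M2, and 7 and 6 in M3. Of all genes 30.4% rose and 30.5% fell in M1, 28.7% and 28.8% in M2, and 30.3% and 29.1% in M3. The plaque and scaffold counts lay near these shares. Patj, a scaffold of the Crumbs polarity complex, rose by 1.68, 2.01 and 2.00 but was under 1 RPKM in Py2T LT and passed the filter only through the clones, and Magi1, a scaffold at epithelial junctions, fell by 0.73, 0.90 and 0.69. None of 17 other claudins passed the filter of 1 RPKM in 2 libraries.

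In M3 cells both knockdowns went with higher Cldn3, Cldn4, Cldn7 and Ocln, and shMbd3 with lower Tjp1. With shTet2, 6 of 9 tested members rose and 0 fell, where 10.5% and 12.9% of all 12808 genes did. With shMbd3, 4 rose and 1 fell, with backgrounds of 15.3% and 16.9%. The 2 comparisons share the shControl libraries. The median log2 difference of the members was 0.62 with shTet2 and 0.48 with shMbd3, against 0.02 and 0.00 over all genes. Without shControl replicate 1, 7 rose and 0 fell with shTet2, where 16.4% and 16.5% of all genes did, and 5 rose and 2 fell with shMbd3, where 16.9% and 17.5% did. Leaving out shTet2 replicate 1 or 2 left 4 members called with shTet2, where 11.9% and 10.4% of all genes were called. Fitted on the libraries of the 2 groups alone, 1 member was called with shTet2 (Ocln) and 3 with shMbd3 (Cldn4, Cldn7 and Ocln), where 2.72% and 3.01% of all genes were.

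Cldn4 was at 4.12 and 13.8 CPM with shControl, 57.7 and 71.5 with shTet2 and 94.9 and 117 with shMbd3. Neither knockdown overlapped shControl, and both shMbd3 libraries lay above both shTet2 libraries. It rose by 3.03 ± 0.40 with shTet2 (adjusted p = 0.000806) and by 3.65 ± 0.40 with shMbd3 (adjusted p = 0.00027). When shControl replicate 1 was left out, the Cldn4 differences were 2.27 (adjusted p = 1.39e-05) and 2.89 (adjusted p = 2.88e-06).

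Cldn7 was at 3.02 and 7.19 CPM with shControl, 23.1 and 27.8 with shTet2 and 32.0 and 38.1 with shMbd3. All 4 knockdown libraries lay above both shControl libraries. The Cldn7 rise was 2.35 ± 0.29 with shTet2 (adjusted p = 0.000556) and 2.71 ± 0.29 with shMbd3 (adjusted p = 0.000238), and 1.84 and 2.20 without shControl replicate 1, both still called.

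Ocln was at 1.88 and 1.92 CPM in shControl, 41 and 40 reads, 9.87 and 9.41 in shTet2, and 12.6 and 10.9 in shMbd3. The shControl libraries agreed here, and both knockdowns stood clear of them. The Ocln rise was 2.11 ± 0.19 with shTet2 (adjusted p = 0.000106) and 2.30 ± 0.19 with shMbd3 (adjusted p = 7.19e-05), and 2.15 and 2.33 without shControl replicate 1. Of the members it was the one whose rise with both knockdowns was called under all 23 settings tried.

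Cldn3 was at 0.595 and 10.4 CPM in shControl, 13 and 218 reads, 21.7 and 30.2 in shTet2, and 26.4 and 33.6 in shMbd3. The groups did not overlap, but the shControl pair was wide apart, so that the fitted rise was 2.96 ± 0.81 with shTet2 (adjusted p = 0.0279) and 3.09 ± 0.81 with shMbd3 (adjusted p = 0.0199). Leaving that library out lowered the Cldn3 rise to 1.34 (adjusted p = 0.00597) and 1.46 (adjusted p = 0.00366), and leaving out shControl replicate 2 raised it to 4.58 and 4.71. The rise was not called without either library of the knockdown concerned. On recovered reads neither edgeR nor DESeq2 called the rise with shTet2.

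Cldn6 was at 292 and 374 CPM with shControl, 479 and 487 with shTet2 and 347 and 343 with shMbd3. It rose with shTet2 by 0.58 ± 0.10 (adjusted p = 0.00389), while the shMbd3 libraries lay between the shControl libraries. Leaving out shControl replicate 1, the Cldn6 rise with shTet2 was 0.46. Cldn9 was at 43.2 and 73.8 CPM with shControl, 75.9 and 79.8 with shTet2 and 56.7 and 56.2 with shMbd3, and passed with neither knockdown; without shControl replicate 1 it was called lower with shMbd3, at -0.39 (adjusted p = 0.0228).

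Cldn12 was at 140.0 and 102 CPM with shControl, 185 and 169 with shTet2 and 187 and 161 with shMbd3. It rose with shTet2 by 0.60 ± 0.18 (adjusted p = 0.0415), a call lost in 12 of 23 other settings, and did not pass with shMbd3 (0.48 ± 0.18, adjusted p = 0.0691). In the fit without shControl replicate 1 the Cldn12 rise was 0.88 and 0.77, called with both knockdowns. Cldn1 was at 8.92 and 8.19 CPM with shControl, 12.04 and 14.2 with shTet2 and 11.02 and 11.1 with shMbd3. Its difference with shTet2, 0.62 ± 0.20, just missed the threshold (adjusted p = 0.0519), and was called at 0.73 without shControl replicate 1.

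Tjp1 was the one member that fell, and it did so with shMbd3. Its level was 243 and 197 CPM with shControl, 231 and 200.4 with shTet2 and 131 and 129 with shMbd3. The fall with shMbd3 was 0.81 ± 0.15 on the log2 scale (adjusted p = 0.00421), or 1.75-fold on the scale of CPM + 0.5, and without shControl replicate 1 the Tjp1 difference was -0.60. With shTet2 the difference was 0.01 ± 0.15 (adjusted p = 0.981), and 0.22 without shControl replicate 1 (adjusted p = 0.147).

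**Figure D3:**
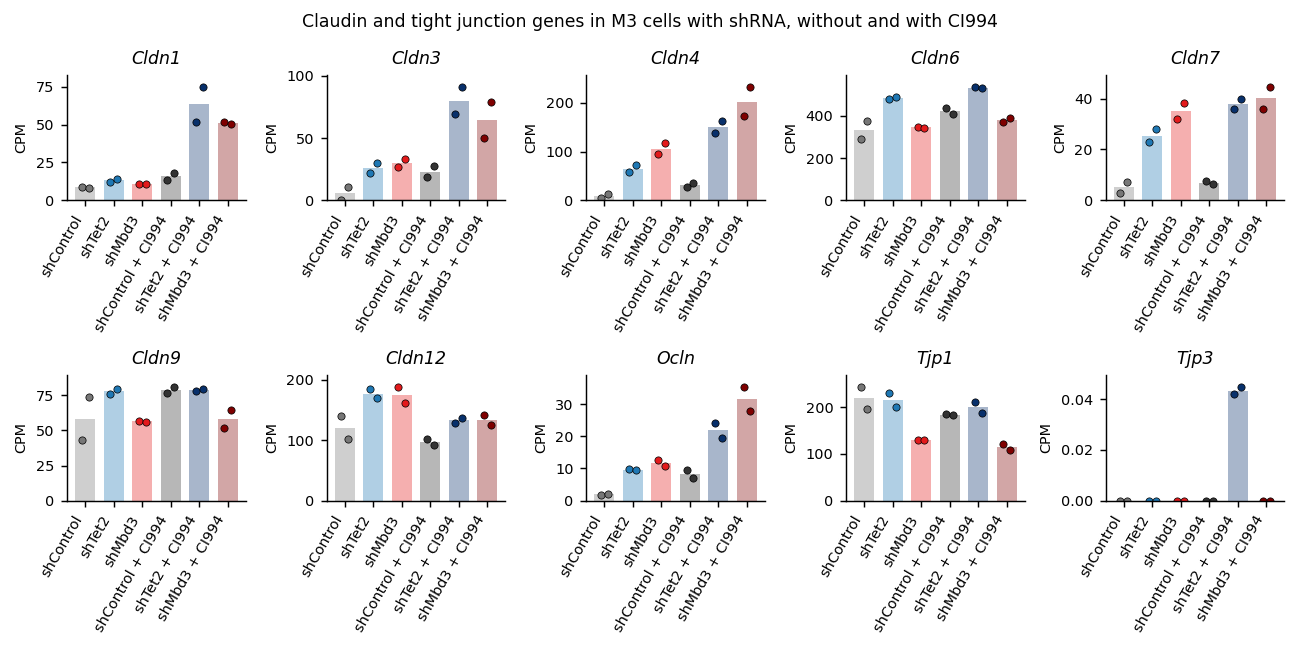
CPM (y axis, linear from 0, its own range for each gene) of the 10 members in M3 cells with shControl, shTet2 or shMbd3, without and with CI994 (x axis). Points are the 2 replicates and bars their mean; Cldn4, Cldn7 and Ocln are higher in every knockdown library than in shControl without CI994, Cldn1 is highest where a knockdown and CI994 meet, and Tjp1 is lowest with shMbd3.

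The 2 knockdowns were compared with each other directly. Without CI994, 2 members were higher with shTet2 than with shMbd3 and 0 lower, where 9.55% and 9.60% of all genes were: Cldn6 by 0.58 ± 0.10 (adjusted p = 0.00476) and Tjp1 by 0.81 ± 0.15 (adjusted p = 0.0052). With CI994 the same 2 members were called and 0 lower, with 11.1% and 10.8% of all genes: Cldn6 by 0.52 ± 0.10 and Tjp1 by 0.83 ± 0.15. Cldn4 was lower with shTet2 in each of the libraries compared, by a log2 difference of -0.62 ± 0.40 that did not pass (adjusted p = 0.326); without shControl replicate 1 the same difference was called, as was a Cldn9 difference of 0.55, in a fit that called 45.3% of all genes. Ocln (-0.18 ± 0.19) and Cldn7 (-0.36 ± 0.29) did not pass. The Cldn6 difference with CI994 was not called without either shTet2 library or shMbd3 replicate 1 of the CI994 groups, and the Tjp1 difference without CI994 not without shTet2 replicate 1.

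Epithelial and mesenchymal markers moved with the knockdowns beside these genes. Of 6 tested epithelial markers 5 rose with shTet2 and 4 with shMbd3, and 6 and 4 without shControl replicate 1, where 1 also fell with shMbd3. Cdh1 (E-cadherin) was at 16.3 and 25.7 CPM with shControl, 202 and 207 with shTet2 and 170 and 202 with shMbd3. The epithelial sum was 989 and 2498 CPM with shControl, 3596 and 4060 with shTet2 and 2594 and 2667 with shMbd3, with Krt19 at 0 to 2 reads in each of these 6 libraries. Of 6 mesenchymal markers 1 rose and 3 fell with shTet2, and 1 rose and 5 fell with shMbd3, which became 1 and 4, and 1 and 5, without shControl replicate 1. The 1 that rose was Cdh2, by 0.44 with shTet2 and 0.28 with shMbd3. Among all genes, 10.5% rose and 12.9% fell with shTet2, and 15.3% and 16.9% with shMbd3, in the fit of all libraries. The mesenchymal sum was 4392 and 6122 CPM with shControl, 2949 and 3063 with shTet2 and 2815 and 3117 with shMbd3. Zeb1, a repressor that binds E-boxes, was at 57.8 and 52.1 CPM with shControl, 18.4 and 17.3 with shTet2 and 21.1 and 19.4 with shMbd3. Their part in the claudin differences was not tested.

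Ocln and Cldn1 rose with CI994 in all 3 backgrounds, and in shControl Cldn3, Cldn4 and Cldn6 rose too. In shControl, 5 of 9 tested members rose and 0 fell, where 17.9% and 15.7% of all genes did. In shTet2, 2 rose and 0 fell, with backgrounds of 12.6% and 11.7%, and in shMbd3, 2 rose and 0 fell, with 7.58% and 5.11%. The median log2 difference of the members was 0.49, 0.50 and 0.19 in the 3 backgrounds, against 0.03, 0.01 and 0.00 over all genes. Without shControl replicate 1 the counts were 4 and 0 in shControl, where 16.1% and 13.6% of all genes were called, 5 and 1 in shTet2 (29.3% and 28.4%), and 4 and 1 in shMbd3 (21.8% and 20.2%). In shControl, 9 members were called without shControl replicate 2, 1 without replicate 2 of its CI994 pair, and 0 when only these 2 groups were fitted, where 70.4%, 10.7% and 0.0976% of all genes were called. In shTet2 and shMbd3, 6 and 5 were called without shControl replicate 2, with 57.7% and 41.9% of all genes, and 6 and 5 when only the groups compared were fitted, with 59.7% and 38% of all genes.

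Ocln with CI994 was at 9.53 and 7.14 CPM with shControl, 24.2 and 19.5 with shTet2 and 35.2 and 27.9 with shMbd3. In each background both CI994 libraries lay above both libraries without it. The Ocln rise was 1.84 ± 0.19 in shControl (adjusted p = 0.000516), 1.07 ± 0.19 in shTet2 (adjusted p = 0.00542) and 1.37 ± 0.19 in shMbd3 (adjusted p = 0.00297), and 1.88 in shControl without replicate 1. The rise in shTet2 was not called without replicate 1 of its CI994 pair, where it was 0.92.

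Cldn1 with CI994 was at 13.6 and 17.9 CPM with shControl, 51.8 and 74.8 with shTet2 and 51.5 and 50.3 with shMbd3. The knockdown libraries with CI994 stood far above every other library. The Cldn1 rise was 0.80 ± 0.20 in shControl (adjusted p = 0.0174), 2.14 ± 0.20 in shTet2 (adjusted p = 0.00028) and 2.15 ± 0.20 in shMbd3 (adjusted p = 0.00047). The rise in shControl was 0.92 without replicate 1 and was not called without replicate 2 of the treated pair, where it was 0.63.

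Cldn4 with CI994 was at 27.6 and 34.5 CPM with shControl, 138 and 162 with shTet2 and 173 and 232 with shMbd3. It rose by 1.92 ± 0.40 in shControl (adjusted p = 0.00927) and was at 1.15 ± 0.40 in shTet2 (adjusted p = 0.0654) and 0.91 ± 0.40 in shMbd3 (adjusted p = 0.173). In all 3 backgrounds the groups with and without CI994 did not overlap, and without shControl replicate 1 the Cldn4 rise was called in each, at 1.16, 1.15 and 0.91. The call in shControl was lost without replicate 2 of its CI994 pair.

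Cldn3 with CI994 was at 18.5 and 27.6 CPM with shControl, 69.3 and 91.0 with shTet2 and 50.3 and 78.7 with shMbd3. It rose by 2.73 ± 0.81 in shControl (adjusted p = 0.0318), a call lost in 9 of 23 other settings, and was at 1.55 ± 0.81 in shTet2 and 1.06 ± 0.81 in shMbd3. In the fit without shControl replicate 1 the Cldn3 rise was 1.10 in shControl, 1.55 in shTet2 and 1.06 in shMbd3, each called. Cldn6 with CI994 was at 437 and 407 CPM with shControl, 536 and 531 with shTet2 and 369 and 389 with shMbd3, and its rise of 0.32 ± 0.10 in shControl (adjusted p = 0.0408) was lost in 15 of 23 settings, among them without shControl replicate 1 (0.20), and turned to -0.0816 with the GC trend removed.

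Cldn7, Cldn9, Cldn12 and Tjp1 passed with CI994 in none of the backgrounds in the fit of all 12 libraries. Cldn7 with CI994 was at 7.57 and 6.39 CPM with shControl, 36.0 and 39.7 with shTet2 and 36.0 and 44.5 with shMbd3. In shTet2 both Cldn7 values lay above the 23.1 and 27.8 CPM without CI994, with a limma difference of 0.50 ± 0.29 (adjusted p = 0.227). Cldn9 with CI994 was at 76.5 and 80.7 CPM with shControl, 78.3 and 79.9 with shTet2 and 51.6 and 64.3 with shMbd3. Cldn12 with CI994 was at 101 and 92.3 CPM with shControl, 129 and 136 with shTet2 and 142 and 125 with shMbd3. In each background both values lay below both libraries without CI994, in shControl by a narrow margin (101.5 against 101.7 CPM). Without shControl replicate 1 Cldn12 was called lower in shTet2 and shMbd3, at -0.49 and -0.39. Tjp1 with CI994 was at 186 and 183 CPM with shControl, 212 and 188 with shTet2 and 121 and 109 with shMbd3.

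**Figure D4:**
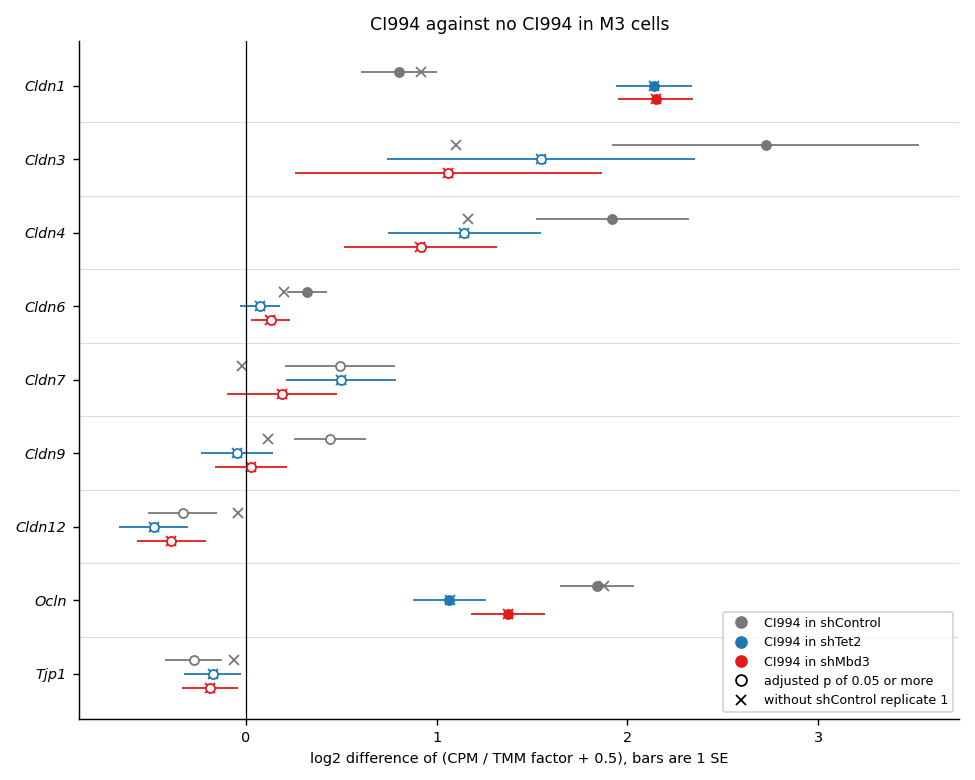
Log2 difference of CI994 against no CI994 (x axis, on the scale of CPM divided by the TMM factor plus 0.5) for the 9 tested members (y axis) in shControl, shTet2 and shMbd3. Filled points passed the threshold and open ones did not, bars are 1 SE from the fit and crosses the value without shControl replicate 1; Ocln and Cldn1 are filled in all 3 backgrounds.

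With CI994 some markers of other cell types were also higher, and so were epithelial markers in shControl. There 5 of 6 tested epithelial markers rose and 0 fell, beside 17.9% and 15.7% of all genes. Their median log2 difference was 0.94, or 0.50 without shControl replicate 1. Only 1 rose and 1 fell among shTet2 cells (12.6% and 11.7% of all genes). Cells with shMbd3 had 0 rises and 1 fall (7.58% and 5.11%). The epithelial sum of shControl was 3582 and 3570 CPM after CI994, against 989 and 2498 without it. The 6 haematopoietic markers summed to 1.60 and 2.35 CPM with shControl, 3.73 and 2.84 with shTet2 and 1.17 and 2.01 with shMbd3, and after CI994 to 10.5 and 10.3, 20.7 and 19.1, and 11.6 and 11.8. Cd68 and Lyz2 held most of this sum and rose with CI994 in all 3 backgrounds, whereas Ptprc was at most 0.378 CPM in any library and Cd3e and Laptm5 had at most 2 reads each in any library. Lyz2 was under 0.5 CPM in every library without CI994, so its direction was fixed by the filter. Krt14, a basal keratin, was at 1.01 and 3.79 CPM in shControl and 32.1 and 25.4 with CI994, 4.20 and 5.08 in shTet2 and 71.4 and 52.6 with CI994, and 22.8 and 17.0 in shMbd3 and 108 and 78.1 with CI994, while Krt5 had at most 2 reads in any library. Endothelial markers summed to at most 1.18 CPM, with Cldn5 at 0 reads in all 12 libraries. Of 6 mesenchymal markers 1 rose and 2 fell with CI994 in shControl, where 17.9% and 15.7% of all genes did. Fn1 rose by 1.03 (0.69 without replicate 1), and Prrx1 fell by 1.85 and Twist1 by 0.64 (a difference of -0.39 without replicate 1). Among shTet2 cells 2 mesenchymal markers rose and 2 fell with CI994 (12.6% and 11.7% of all genes). Cells with shMbd3 had 1 rise and 1 fall (7.58% and 5.11%). The mesenchymal sum was 8291 and 8731 CPM in shControl with CI994, mostly Fn1. Vim in shControl was at 1461 and 1525 CPM without and 1659 and 1691 with CI994. The part of these markers in the claudin differences was not tested.

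Knockdown and CI994 together gave the highest levels of Cldn1, Cldn3, Cldn4 and Ocln. Among cells with CI994, 4 of 9 members rose with shTet2 and 0 fell, where 6.69% and 9.28% of all genes did, and 4 rose and 1 fell with shMbd3, where 8.11% and 11% did. These comparisons do not use shControl without CI994, and share the shControl libraries with CI994. Cldn4 rose by 2.25 ± 0.40 with shTet2 and by 2.64 ± 0.40 with shMbd3, Cldn7 by 2.35 ± 0.29 and 2.41 ± 0.29, Cldn1 by 1.95 ± 0.20 and 1.64 ± 0.20, and Ocln by 1.34 ± 0.19 and 1.83 ± 0.19. These 8 rises were called under every one of 23 settings. Tjp1 fell by 0.72 ± 0.15 with shMbd3, a call lost without shControl replicate 1 or shMbd3 replicate 2 of the CI994 groups, and Cldn3 did not pass (1.78 ± 0.81 and 1.42 ± 0.81), although its libraries did not overlap those of shControl. The fit without the untreated shControl replicate 1 called 7 rises with shTet2 (19.4% of all genes rose and 21.3% fell), and 6 rises and 3 falls with shMbd3 (21.4% and 22.8%), and leaving out shControl replicate 2 instead called 7 and 9 members, with 40.6% and 44.1% of all genes.

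Whether the knockdown effect differed with CI994 was tested as an interaction. Of 9 members 0 passed by limma for shTet2, where 0.414% of all genes were higher and 0.273% lower, and 0 for shMbd3, with 0.0390% and 0.0390%. At an unadjusted p under 0.05 there were 2 for shTet2 and 1 for shMbd3, edgeR on recovered reads called 0 and 0, and DESeq2 called 1 and 1. Cldn1 came nearest, with an interaction of 1.34 ± 0.28 for shTet2 (adjusted p = 0.0768) and 1.35 ± 0.28 for shMbd3 (adjusted p = 0.126). By DESeq2 the Cldn1 interaction was 1.38 in both, with adjusted p = 0.00405 and 0.00706, and without shControl replicate 1 it was 1.22 for shTet2, called at adjusted p = 0.0265, and 1.23 for shMbd3 (adjusted p = 0.0671). Over all 23 settings the adjusted p of Cldn1 ran from 0.00184 to 0.309 for shTet2 and from 0.00113 to 0.518 for shMbd3. The Ocln interaction was -0.78 ± 0.27 for shTet2 (adjusted p = 0.306) and -0.47 ± 0.27 for shMbd3 (adjusted p = 0.487), and for Cldn4 the value was -0.78 ± 0.57 and -1.01 ± 0.57. When shControl replicate 1 was left out the interactions were -0.81 and -0.51 for Ocln and -0.02 and -0.25 for Cldn4, none of them called.

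**Figure D5:**
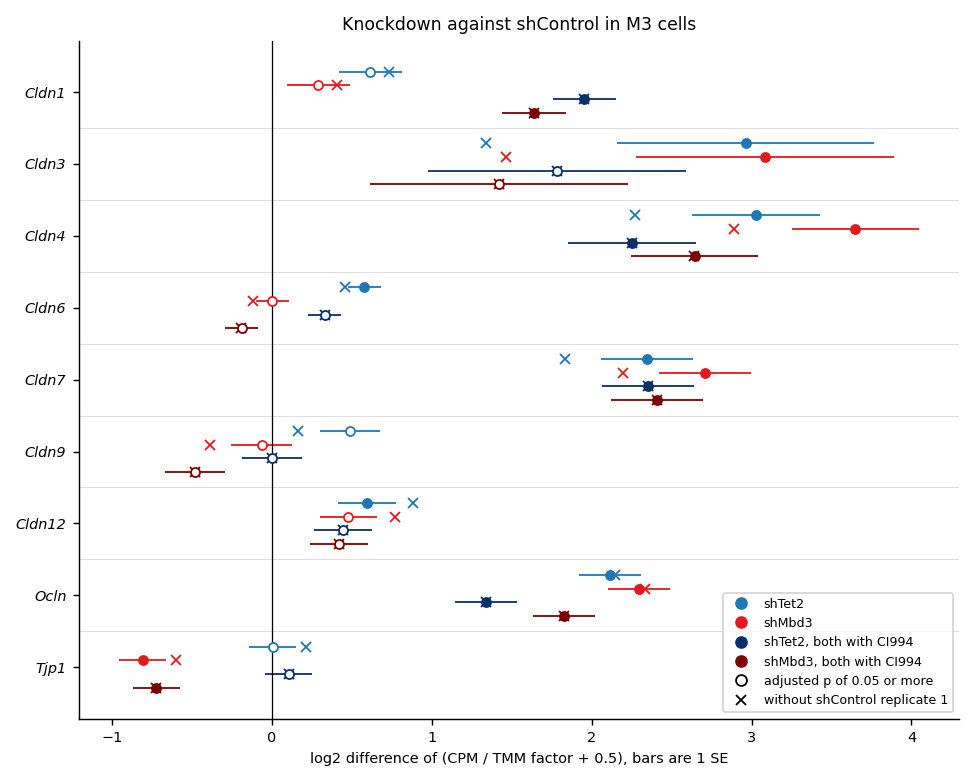
Log2 difference of each knockdown against shControl (x axis, on the scale of CPM divided by the TMM factor plus 0.5) for the 9 tested members (y axis), without and with CI994. Filled points passed the threshold and open ones did not, bars are 1 SE from the fit and crosses the value without shControl replicate 1; Cldn4, Cldn7 and Ocln are filled in all 4 comparisons, and the crosses of Cldn3 lie well left of its points without CI994.

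Other tight junction genes were listed beside the members. Of the 17 other claudins 2 passed the filter of 0.5 CPM: Cldn23 was at 0.732 and 0.479 CPM with shControl, 2.31 and 2.19 with shTet2 and 3.30 and 3.39 with shMbd3, and rose by 1.35 and 1.76. Cldn2, a claudin of leaky epithelia, had 5 and 3 reads in shControl and 40 and 29 with CI994, a difference of 1.55 (1.66 without shControl replicate 1), and passed the filter only through libraries with CI994. Of 9 tested junction membrane proteins 5 rose and 1 fell with shTet2, 7 and 2 with shMbd3, and 3 and 1 with CI994 in shControl; without shControl replicate 1 these counts were 5 and 1, 7 and 2, and 3 and 0. Lsr was at 4.62 and 18.7 CPM with shControl, 70.3 and 76.4 with shTet2 and 105 and 118 with shMbd3, a rise of 2.93 and 3.44. Marveld2 (tricellulin), which works with Lsr, rose by 2.18 and 2.55, and Crb3, a polarity protein, by 2.70 and 1.90. Crb3 was under 0.5 CPM in both shControl libraries, so its direction was fixed by the filter. The same holds for Ildr1 with shMbd3, counted among the rises at 0.97. Igsf5 rose with shMbd3 by 2.04, and the direct test gave -1.92 for shTet2 against shMbd3. Left without shControl replicate 1, the rises with shTet2 and shMbd3 were 2.03 and 2.54 for Lsr, 1.96 and 2.32 for Marveld2, 2.33 and 1.53 for Crb3 and 1.56 and 1.96 for Cldn23, and that of Igsf5 with shMbd3 was 2.35, all still called.

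Of the 26 plaque and scaffold proteins 8 rose and 2 fell with shTet2, 12 and 1 with shMbd3, and 9 and 3 with CI994 in shControl, and 9 and 2, 12 and 2, and 10 and 4 without shControl replicate 1. Beside these counts and those of the membrane proteins, the shares of all genes that rose and fell were 10.5% and 12.9%, 15.3% and 16.9%, and 17.9% and 15.7%, and without that library 16.4% and 16.5%, 16.9% and 17.5%, and 16.1% and 13.6%. Cgn (cingulin) was at 16.6 and 24.3 CPM with shControl, 49.1 and 42.7 with shTet2, 54.7 and 54.0 with shMbd3 and 47.8 and 43.6 with shControl and CI994, and rose by 1.20, 1.35 and 1.13, or by 0.98, 1.14 and 0.92 without shControl replicate 1. Pard6b, a subunit of the Par polarity complex, rose by 1.73 with shTet2, while its relative Pard6g fell by 2.06 with shTet2 and by 2.08 with shMbd3, and was under 0.5 CPM in the 4 knockdown libraries without CI994, so its direction was fixed by the filter too. Amot (angiomotin) fell by 1.54 with shTet2. In the fit without shControl replicate 1 these differences were 1.68 for Pard6b, -2.12 and -2.15 for Pard6g and -1.35 for Amot. For Amot the direct test gave -1.32 for shTet2 against shMbd3. With CI994, 5 rose and 3 fell in shTet2, and 0 rose and 1 fell in shMbd3, which became 13 and 5, and 11 and 5, without shControl replicate 1, where 29.3% of all genes rose and 28.4% fell in shTet2, and 21.8% and 20.2% in shMbd3.

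Across the 12 CPM libraries the members fell into patterns, described here by Pearson's r of log2 values over libraries that share groups, scaling and the GC trend of 1 library, with no test. Cldn4 went with Cldn7 (r = 0.95), Cldn3 (r = 0.93) and Ocln (r = 0.93), and Cldn6 with its neighbour Cldn9 (r = 0.86). Tjp1 ran against Cldn4 (r = -0.64). Among 9944 genes with a mean of 5 CPM or more, those most like Cldn4 included Wwc1 (r = 0.993) and Stard10 (r = 0.989). Those most like Ocln included Vapb (r = 0.983) and Cgn (r = 0.981), those most like Cldn7 were Lpin3, Ddx19b and St14, and those most like Cldn3 were Ppp1r13l, Ankrd11 and Ssh3. Cldn6 was most like Slc44a2, Ybx1 and Tpt1, Cldn9 like Plk1, Nudt9 and Gpx4, and Cldn1 like Saraf, Eif2ak3 and Rsph3a. Cldn12 was most like Vps36, Emc4 and Lrrk2, and Tjp1 like Clcc1, Phka1 and Nfatc3.

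Genes beside the Cldn3 and Cldn4 pair moved in part with it, by amounts that depended on shControl replicate 1. Abhd11, 21675 bases beyond Cldn3, rose by 1.02 with shTet2, by 0.94 with shMbd3 and by 0.79 with CI994 in shControl. With that library left out the Abhd11 differences were 0.52, 0.44 and 0.29, the last no longer called (adjusted p = 0.0909). Stx1a rose by 1.47 with shMbd3 and by 1.74 with CI994 in shControl, and by 0.65 and 0.92 with that library left out. Mettl27, the nearest gene to Cldn4, passed in none of the CPM comparisons with both shControl libraries in the fit. With CI994 in both arms, where Cldn4 rose with each knockdown, Bud23 was the 1 neighbour of the pair that passed, and it fell by 1.03 with shMbd3. In the fit without shControl replicate 1, 4 neighbours of the pair were called higher in those comparisons: Abhd11 at 0.54 with shTet2 and 0.27 with shMbd3, Stx1a at 0.46 and 0.62, Eif4h at 0.20 and 0.35, and Limk1 at 0.30 with shMbd3. Beside Cldn6 and Cldn9, Hcfc1r1 rose by 1.12 and Thoc6 by 0.83 with shTet2, which became 0.58 and 0.38 with that library left out, Thoc6 no longer being called (adjusted p = 0.0812).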

How the data were processed

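RNA of 20 libraries was measured by sequencing after total RNA library preparation that keeps strand, per the labels' protocols. STAR and mm10 are named in the submitters' processing notes without versions, and how reads were counted, and on which strand, is not given in the sources used here. The deposited values were RPKM in 8 libraries of Py2T LT and the clones and CPM in the 12 M3 shRNA libraries. RefSeq symbols matched 19262 of 19311 and 24374 of 24454 gene IDs. Deposited CPM values were whole reads in 100% of cases within 0.01 reads. The test was limma 3.58.1 in R 4.3.3, run on genes reaching 1 RPKM or 0.5 CPM in 2 or more libraries (11717 and 12808). Each value was divided by its TMM factor, 0.5 was added and log2 taken, and variances were moderated with a mean trend and robust settings, 1 fit for each set, group as the only term, Benjamini-Hochberg adjustment and a threshold of 0.05, for 17 comparisons. Fold changes are on that scale, so changes of low genes are understated, and SE comes from the fit.

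The labels name 2 independent experiments for RNA isolation. They do not say whether replicate numbers mark these experiments or whether cultures were separate, so p-values measure the spread between these samples. Members and lists were chosen with earlier results of these data known. Named beside the members were Tet2 and Mbd3, up to 4 rises and 4 falls per list and comparison with a mean of at least 1, the 3 nearest tested genes on each side of the 2 claudin pairs, and the 3 genes most correlated with each member. A few of the genes this rule names are not reported here. Alternatives were RLE scaling, no scaling, no filter, pseudocounts of 0.1 and 1, a replicate block, GC trend removal, only the groups compared, edgeR 4.0.16 and DESeq2 1.42.0 on recovered reads, and leaving out each library. The fit was tested on simulated data. Protein sequences were not analysed here.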

Additional observations from a re-analysis of the deposited data

How the results depend on the processing

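Of 63 member differences called, 40 stayed called under every alternative (17 settings in RPKM and 23 in CPM). Scaling, pseudocounts and the replicate block ended none of the 63, removing the filter ended 3, and fitting only the groups compared 14. The 1 reversal was Cldn6 with CI994 in shControl, at -0.0816 with the GC trend removed and at -0.0816 with the block added; the cause was not tested.

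Counts of called members moved as follows. The number of all genes called, of 11717 in RPKM and 12808 in CPM, moved with the setting too and is given beside them. With the GC trend removed there was 1 for M1 against M2, 9 for shMbd3 against shControl, 4 for CI994 in shTet2 and 1 for the shTet2 interaction. In the same order, 2286, 5316, 4109 and 536 of all genes were called. With the replicate block as well there was 1 for M1 against M2, 9 for shMbd3, 5 for CI994 in shTet2, 4 for CI994 in shMbd3, 8 for shTet2 and 9 for shMbd3 with CI994, 4 and 5 for shTet2 against shMbd3 without and with CI994, and 1 and 2 for the interactions. All genes called numbered, in that order, 2171, 6356, 5237, 4444, 4686, 5458, 5566, 5920, 1133 and 568. Fitting only the groups compared, so with fewer samples, gave 1 for M1 and 5 for M2 against M3, 1 for shTet2, 3 for shMbd3, 0 for CI994 in shControl, 6 in shTet2 and 5 in shMbd3, 7 for shTet2 and 8 for shMbd3 with CI994, and 5 and 5 for shTet2 against shMbd3. Of all genes 200, 3556, 328, 364, 12, 7296, 4599, 5229, 4782, 5576 and 5590 were called in these comparisons. DESeq2 gave 1 for each interaction, where it called 267 of all genes for shTet2 and 119 for shMbd3.

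Leaving out 1 library gave 7 to 7 for M1, 5 to 7 for M2 and 7 to 8 for M3 against Py2T LT, 1 to 5 for M1 against M2 (1 without M1 replicate 1 or either M2 library, 5 without M1 replicate 2), 1 to 4 for M1 and 2 to 4 for M2 against M3. It gave 4 to 7 for shTet2 and 4 to 7 for shMbd3 against shControl, 1 to 9 for CI994 in shControl (1 without replicate 2 of the treated pair, 9 without shControl replicate 2), 1 to 6 in shTet2 and 2 to 5 in shMbd3. With CI994 it gave 4 to 7 for shTet2 and 4 to 9 for shMbd3, and for shTet2 against shMbd3 1 to 4 without and 1 to 4 with CI994. The interactions ranged from 0 to 5 and from 0 to 6, the highest without shControl replicate 2, which leaves the library of the GC trend as the only untreated control. Where 1 library of a group remained, it was assumed to vary like the others. The number of all genes called also changed with the library left out, so these ranges are not results about the members alone.

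The replicate block raised the count for CI994 in shTet2 from 2 to 4 and moved no other count by over 1.5 times. All genes called for CI994 in shTet2 went from 3111 to 4154. Same-numbered libraries were not taken as pairs, since the labels do not say that replicate numbers mark a shared experiment. Their deviations correlated from 0.0958 to 0.524 over 15 CPM group pairs, 14 of them over 0.1. Over 6 RPKM group pairs the correlations ran from -0.123 to 0.128.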
